A study of Mus musculus with 20 samples.

Results

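The spots described here read lower in the lungs of irradiated mice than of unirradiated mice on both of the study's diets. They were chosen from the authors' deposited series table, after adding 0.6 to each value and taking log2, as every spot whose group mean was more than 1 lower with radiation than without it, both among mice fed no flaxseed and among mice fed flaxseed. The rule found 31 of 9600 spots. The files name spots by number only, from gene0001 to gene9600, and pair no number with a gene, so no gene name or role can be given for any of them. The labelled tissue could likewise not be checked against marker genes.

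RNA was measured in whole lung of 20 C57BL/6 mice, an inbred laboratory strain, on MA10 arrays with 1 array per mouse. Untreated mice received neither treatment, flaxseed mice were fed a diet with 10% flaxseed for 21 days, radiation mice received 13.5 Gy and were killed 48 hours later, and mice of the group with both treatments received that diet and then that dose. The design text places the radiation on the thorax. Each group held 5 mice, and what the mice without flaxseed ate is not given in the sources used here.

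Ionising radiation breaks DNA, and cells respond by halting division, repairing the breaks or dying. Dividing cells and lymphocytes are among the cells most sensitive to it, while most cells of the lung lining and vessels divide slowly. Flaxseed, the seed of the linseed plant, is rich in alpha-linolenic acid and in lignans. A whole-lung array reads all cell types together, so fewer cells of a type and less RNA per cell cannot be told apart.

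Median signal over local background was between 4.65 and 6.53 on the 20 arrays, with group means from 5.40 to 5.84. Every one of the 620 single readings of the 31 spots was over 2 times its local background, the lowest at 2.71 in gene8266. The median of a spot over the arrays ran from 9.39 (gene6461) to 103 (gene0066) times background. The share of all spots over 2 times background was not counted. By mean intensity 20 of the 31 lay among the brightest 5% of all spots, and the dimmest, gene8266, ranked at 74.6%. The number of arrays limits the precision of all values below.

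On the scale of the rule, radiation minus untreated ran from -2.60 to -1.02 over the 31 spots, with a median of -1.89, a 3.71-fold lower level. Flaxseed with radiation minus flaxseed ran from -2.64 to -1.003, with a median of -2.01, a 4.04-fold lower level. These differences chose the spots and carry no test. Over all 9600 spots, 0.354% were under the threshold without flaxseed and 0.552% on the flaxseed diet. No spot (0 of 9600) was over the same size higher with radiation on both diets. This count was 1 with a pseudocount of 0.3, and without untreated replicate 1, 3 or 5 or radiation replicate 1 or 4. It was 0 in the other alternatives run.

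For 26 of the 31 both differences lay within 0.5 of each other, and 19 were more negative on the flaxseed diet. The rule itself limits how unequal they can be, since spots above the threshold on either diet are left out. The spot furthest to the flaxseed side was gene8977, at -1.28 without flaxseed and -2.01 with it, and the spot furthest to the other side was gene9366, at -1.97 and -1.44, both named after their values were seen.

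Close to the threshold the set was thinly filled. The last spots inside were gene6460 (-1.02 without flaxseed and -1.19 with it), gene3164 (-1.08 and -1.02) and gene6461 (-1.15 and -1.003). Just outside were gene4940 (-0.95 and -1.12), gene4930 (-1.03 and -0.91) and gene6121 (-0.86 and -1.68).

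**Figure D1:**
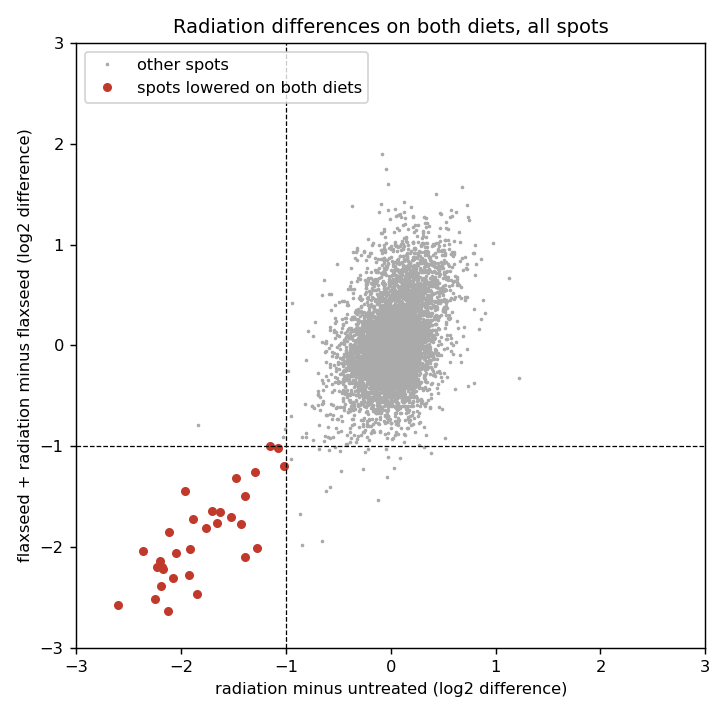
Radiation difference of each of 9600 spots without flaxseed (x axis) and on the flaxseed diet (y axis), both as log2 differences of group means (n = 5 mice) on the scale of the rule, with dashed lines at -1. The 31 spots lowered on both diets (red) form an arm that reaches -2.60 and -2.64, and those nearest the threshold lie close to other spots (grey).

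Each condition of the rule can be read in mice that the other condition did not use, since the 4 groups are separate mice. Without flaxseed, 34 spots were under the threshold, and the 31 make up 91.2% of them. On the flaxseed diet 53 were, and the 31 make up 58.5%. All 34 spots chosen without flaxseed had a lower mean with radiation on the flaxseed diet, with a median log2 difference of -1.87. Over all spots, 48.9% had a higher mean there. Of the 34, 31 fell there (limma adjusted p under 0.05 over all spots, in a model that shares its spread over the 4 groups). Of all 9600 spots, 3.06% fell in that comparison. Among the 31 spots that fell, 30 belong to the set, and for them the rule also used this contrast. The count therefore describes the list and is no test of the set. Leaving out single arrays gave 25 to 32 of the 34, with 174 to 318 of all spots falling. Other processing gave 30 to 32, with 173 to 354 of all spots.

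The 3 of the 34 that missed the rule's threshold on the flaxseed diet were gene1752, gene4930 and gene7980, at -0.79, -0.91 and -0.83. In the opposite reading, 50 of the 53 spots chosen on the flaxseed diet had a lower mean with radiation without flaxseed, with a median log2 difference of -1.25. Over all spots, 52.4% had a higher mean there. Of the 53, 5 fell in limma, where 0.0625% of all spots did. All 5 belong to the set, so this count too is only a description. A lower mean with an unadjusted limma p under 0.05 was found for 40 of the 53. Over all spots, 7.66% had such a p in either direction. That count of 5 was unstable. It was 0 without untreated replicate 3 or 5, flaxseed replicate 2, radiation replicate 1, 2, 3 or 4, or flaxseed and radiation replicate 5. In each of these fits 0 of all spots fell. It was 2 or 3 without untreated replicate 2, flaxseed replicate 1, radiation replicate 5, or flaxseed and radiation replicate 1 or 3, where 3 or 4 of all spots fell. It was 12 without flaxseed and radiation replicate 4 (13 of all spots) and 20 without replicate 2 of that group (23 of all spots). The 22 spots under the threshold on the flaxseed diet alone had a median of -0.37 without flaxseed, from -0.95 to 0.38.

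All values from here on are normalized intensities on the log2 scale, from the scanner files, in the order of replicates 1 to 5. On this scale the 31 spots had a median difference of -1.90 for radiation without flaxseed and -2.01 for radiation on the flaxseed diet. The medians over all spots were 0.01 and 0.00.

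Spot gene0066 had the lowest value of the larger of both rule differences. Its untreated arrays read 12.48, 13.14, 14.24, 13.36 and 14.67, and its flaxseed arrays 14.46, 12.12, 14.59, 13.20 and 14.30. Irradiated arrays read 11.35, 11.77, 10.57, 10.07 and 11.83 without flaxseed and 10.94, 12.41, 11.19, 9.51 and 11.86 with it. The groups were apart without flaxseed and overlapped on the flaxseed diet, where irradiated replicate 2 stood above flaxseed replicate 2. The level was 5.49-fold lower without flaxseed and 5.87-fold lower with it.

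Spot gene0016 read 13.79, 14.06, 13.75, 13.48 and 14.73 in untreated lungs and 14.80, 13.20, 15.68, 14.37 and 14.59 with flaxseed. After radiation it read 12.20, 12.01, 12.52, 10.52 and 12.09, and with both treatments 11.97, 13.17, 11.22, 10.83 and 11.98. No irradiated array reached an unirradiated array of the same diet, but on flaxseed the gap was only that between 13.17 and 13.20.

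Spot gene9516 had the widest gap between groups without flaxseed. Untreated arrays read 13.26, 13.40, 13.62, 13.17 and 13.91 and irradiated arrays 10.93, 11.80, 11.52, 11.36 and 11.26. On flaxseed the readings were 13.98, 14.37, 14.46, 14.30 and 13.66 without radiation and 11.98, 13.45, 11.14, 10.67 and 12.25 with it. Both pairs of groups were apart, and the irradiated flaxseed arrays spread more widely than the other groups.

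Spot gene1091 read 15.12, 14.67, 15.01, 13.98 and 15.12 in untreated lungs and 15.12, 15.12, 14.67, 15.43 and 15.68 with flaxseed. The radiation arrays read 12.02, 13.13, 13.66, 11.62 and 12.73, and those with both treatments 12.69, 14.13, 11.96, 11.25 and 12.43. Every irradiated array was below every unirradiated array of its diet. Its level was 4.44-fold lower without flaxseed and 6.55-fold lower with it.

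Spot gene6466 read 14.46, 13.07, 13.85, 13.06 and 13.55 untreated, 13.66, 14.73, 14.37, 13.07 and 14.67 with flaxseed, 11.92, 11.86, 12.00, 10.43 and 11.65 with radiation, and 12.47, 12.75, 11.06, 11.02 and 12.04 with both. Its groups did not overlap on either diet.

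For gene8241 the untreated values were 13.31, 13.88, 14.02, 13.66 and 13.69 and the flaxseed values 15.01, 14.67, 15.12, 13.79 and 14.13. Radiation gave 11.12, 12.84, 11.98, 10.81 and 11.66, and both treatments 12.39, 13.75, 11.07, 11.04 and 13.06. The groups were apart on both diets, on flaxseed only by the gap from 13.75 to 13.79.

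Spot gene6591 read 12.85, 12.24, 12.90, 12.48 and 12.89 untreated and 12.63, 13.55, 12.84, 12.47 and 12.95 with flaxseed. With radiation it read 10.40, 11.03, 11.04, 10.21 and 10.04, and with both 11.06, 12.10, 10.44, 9.05 and 11.20. Here too both pairs of groups were apart, and the lowest reading was that of replicate 4 with both treatments.

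Spot gene5016 read 13.57, 13.55, 14.59, 13.52 and 13.62 untreated and 13.69, 13.91, 14.80, 13.98 and 14.24 with flaxseed. It read 11.81, 12.41, 11.96, 10.77 and 11.91 with radiation and 12.00, 12.65, 10.75, 10.01 and 12.03 with both. The groups were separated by more than 1 on each diet, the widest gap of these spots on flaxseed.

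In gene1840 untreated arrays read 12.78, 13.31, 13.52, 12.76 and 13.24 and flaxseed arrays 13.82, 12.52, 14.06, 13.57 and 13.85. Irradiated arrays read 11.06, 11.28, 11.79, 10.27 and 11.56 without flaxseed and 11.14, 12.76, 10.51, 10.36 and 11.86 with it. On flaxseed the groups crossed through irradiated replicate 2 alone.

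Spot gene7968 read 13.88, 13.82, 14.37, 13.28 and 14.52 untreated, 14.37, 14.59, 15.01, 14.18 and 14.73 with flaxseed, 12.04, 13.22, 12.28, 11.37 and 11.36 with radiation, and 12.60, 13.64, 12.55, 11.31 and 12.09 with both. Its groups were apart on both diets, without flaxseed by the small gap from 13.22 to 13.28.

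**Figure D2:**
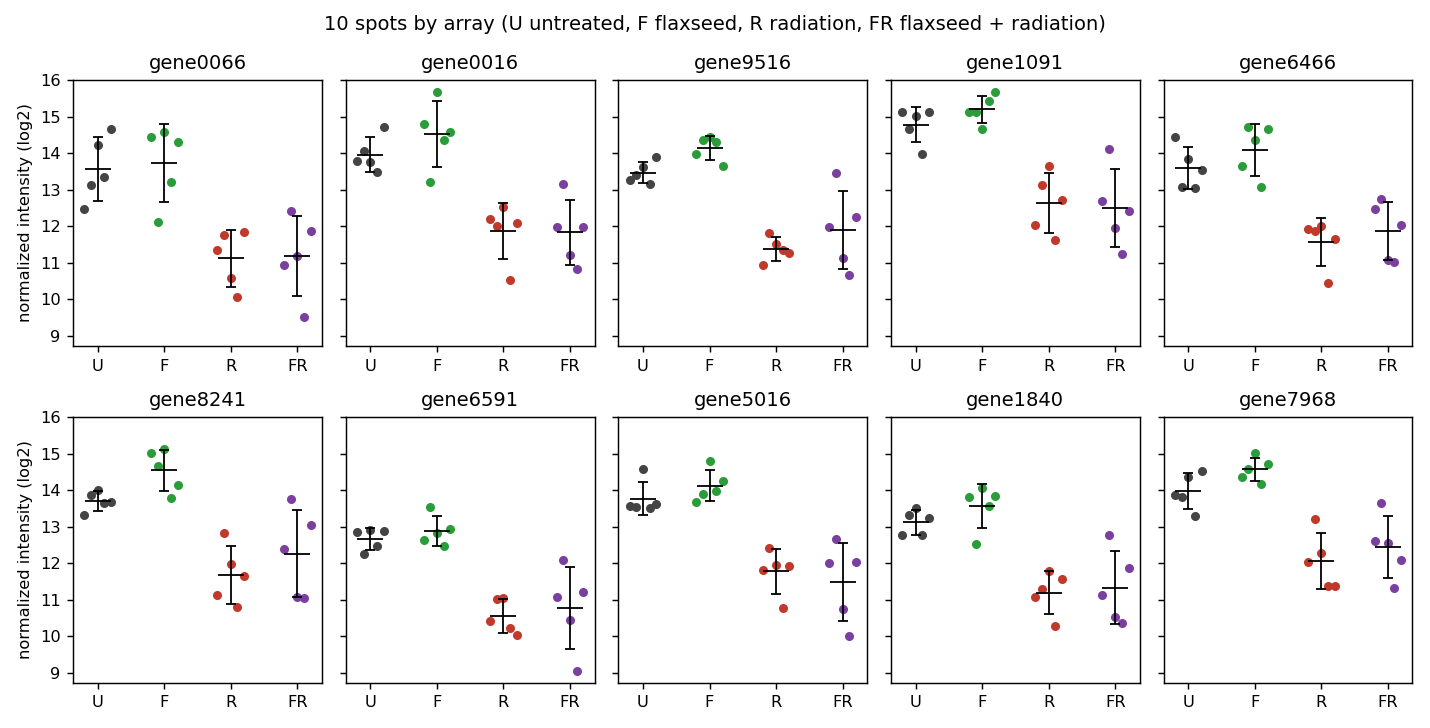
Normalized intensity (log2) of the 10 spots with the lowest rule values, 1 point per array in the order of replicates 1 to 5, with the mean and SD of each group of 5 (U untreated, F flaxseed, R radiation, FR flaxseed with radiation). The means of both irradiated groups lie below those of both unirradiated groups in each panel, single points overlap in some, and the second FR point is the highest of its group.

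The other 21 spots are given by group mean ± SD (n = 5). Spot gene3602 stood at 10.76 ± 0.86 untreated and 8.37 ± 0.80 with radiation, and at 10.93 ± 0.55 and 8.82 ± 0.91 on flaxseed. Spot gene6814 stood at 10.15 ± 0.44 and 8.21 ± 0.25, and on flaxseed at 10.91 ± 1.02 and 8.58 ± 0.80. For both, no irradiated array reached an unirradiated array of its diet. Spot gene9316 stood at 11.72 ± 0.43 and 9.80 ± 0.57, and on flaxseed at 12.11 ± 0.69 and 10.10 ± 1.46. Its flaxseed groups overlapped, with the widest spread of any of the 31 spots in the group with both treatments.

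Spot gene1349 stood at 12.95 ± 0.26 untreated and 10.96 ± 0.68 with radiation, and at 12.84 ± 1.11 and 11.00 ± 0.83 on flaxseed. Spot gene9041 stood at 13.96 ± 0.52 and 12.22 ± 0.70, and on flaxseed at 14.76 ± 0.70 and 12.10 ± 1.10. Spot gene4889 stood at 13.27 ± 0.44 and 11.63 ± 0.89, and on flaxseed at 13.70 ± 0.36 and 11.94 ± 1.14. Of these, gene9041 was apart on both diets and gene4889 on neither. Spot gene6257 stood at 11.72 ± 0.41 and 9.81 ± 0.56, and on flaxseed at 11.71 ± 0.41 and 9.96 ± 0.87. Its unirradiated means were nearly the same on both diets.

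Spot gene3915 stood at 10.00 ± 0.56 untreated and 8.32 ± 0.39 with radiation, and at 10.51 ± 0.60 and 8.65 ± 0.80 on flaxseed. Spot gene8752 stood at 9.99 ± 0.40 and 8.25 ± 0.67, and on flaxseed at 10.43 ± 0.45 and 8.69 ± 1.04. Spot gene3665 stood at 12.99 ± 0.22 and 11.50 ± 0.57, and on flaxseed at 13.00 ± 0.75 and 11.40 ± 1.08. All of these were apart without flaxseed, and gene3915 also on it. Spot gene6665 stood at 10.74 ± 0.59 and 9.16 ± 0.61, and on flaxseed at 10.99 ± 0.67 and 9.19 ± 0.66. Spot gene9366 stood at 12.97 ± 0.64 and 11.07 ± 0.48, and on flaxseed at 12.97 ± 0.73 and 11.58 ± 0.81. Both overlapped on the flaxseed diet only.

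Spot gene0140 stood at 14.09 ± 0.72 untreated and 12.84 ± 0.54 with radiation, and at 14.88 ± 0.64 and 13.01 ± 0.79 on flaxseed. Spot gene8266, the dimmest, stood at 8.46 ± 0.44 and 7.13 ± 0.31, and on flaxseed at 8.88 ± 0.22 and 7.35 ± 0.52. Spot gene8239 stood at 9.23 ± 0.61 and 7.87 ± 0.28, and on flaxseed at 10.03 ± 0.31 and 7.85 ± 0.64. These were all apart on flaxseed, and gene0140 overlapped without it. Spot gene1340 stood at 9.40 ± 0.43 and 7.94 ± 0.53, and on flaxseed at 9.41 ± 0.57 and 8.01 ± 0.44. Spot gene8977 stood at 8.38 ± 0.67 and 7.17 ± 0.15, and on flaxseed at 9.18 ± 0.57 and 7.13 ± 0.43. With radiation, gene8239 and gene8977 read nearly the same on both diets, while without it their flaxseed means were higher.

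The last 4 spots had the larger of both rule differences closest to the threshold. Spot gene1565 stood at 11.92 ± 0.43 untreated and 10.62 ± 0.84 with radiation, and at 12.27 ± 0.38 and 11.04 ± 0.67 on flaxseed. Spot gene6460 stood at 11.88 ± 0.56 and 10.84 ± 0.46, and on flaxseed at 11.87 ± 0.51 and 10.66 ± 0.28. Both overlapped without flaxseed, and gene1565 also on it. Spot gene3164 stood at 8.80 ± 0.67 and 7.75 ± 0.37, and on flaxseed at 9.19 ± 0.77 and 8.07 ± 0.55. Spot gene6461 stood at 8.59 ± 0.35 and 7.49 ± 0.20, and on flaxseed at 8.87 ± 0.36 and 7.81 ± 0.34. Of the 4, gene6461 was apart on both diets, and gene1565 and gene3164 on neither.

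In total, all 5 irradiated arrays were below all 5 untreated arrays for 25 of the 31 spots, as for 0.698% of all spots. On the flaxseed diet this held for 19 of the 31, as for 2.69% of all spots. It held on both diets for 16. The share of all spots apart on both diets was not counted, but it cannot exceed 0.698%. The rule used both contrasts, so these counts describe the set and add no evidence. A single mouse accounted for all overlap on flaxseed: without replicate 2 of the group with both treatments, the groups were apart for 31 of 31, as for 3.88% of all spots.

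Single arrays differed within groups in a way the 31 spots shared. The mean over the 31 was 11.72, 11.79, 12.13, 11.66 and 12.15 in untreated lungs and 12.11, 12.22, 12.66, 11.78 and 12.66 with flaxseed. It was 10.07, 10.59, 10.45, 9.49 and 10.18 with radiation and 10.44, 11.52, 9.82, 9.51 and 10.40 with both. Replicate 2 with both treatments stood closest to the unirradiated mice, and it was the highest of its group for 30 of the 31 spots. It exceeded the lowest flaxseed array for 12 spots and the lowest untreated array for 22.

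Radiation replicate 4 was the lowest of its group for 22 of the 31 spots, and replicate 4 with both treatments for 20. The authors' table holds the scanner values of radiation replicates 4 and 5 under each other's names, so which of these mice had the low array is uncertain. Median signal over background was 5.79 for replicate 2 with both treatments, inside the range of 5.08 to 6.39 of its group. It was 4.67 for radiation replicate 4, where its group ran from 4.65 to 6.23. The part of signal strength in these deviations was not tested.

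The rule used group means only and did not ask how the spots vary together within groups. The deviations below come from the same arrays as those means, so they are no independent support for the set. Deviations of each array from its group mean were correlated between spots over the 20 arrays. The median Pearson correlation over the 465 pairs of the 31 spots was 0.58, with 26 pairs below 0. Over 2893215 pairs of the 2406 other spots that were at least as bright as the dimmest of the 31, the median was 0.00. The first principal component of the deviations held 60.6% of their variance for the 31 spots and 12.7% for those others. Without replicate 2 of the group with both treatments it held 48.8% for the 31. These are descriptions over pairs that share the same 20 arrays. The other spots were not matched to the 31 in brightness or number, and 20 of the 31 lay among the brightest 5% of all spots. The parts of brightness and set size in these differences were not tested.

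In each subset of arrays examined the median stayed above 0. Without replicate 2 of the group with both treatments the median was 0.43, and without that array and replicate 4 of both irradiated groups it was 0.33. It was 0.75 over the 10 irradiated arrays and 0.30 over the 10 unirradiated arrays, where the other bright spots had a median of 0.00 each time. With the authors' table it was 0.64. The difference between irradiated and unirradiated arrays was not tested.

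Among the 31, 28 had a correlation over 0.5 with the mean of the others. The highest were gene6257 at 0.97, gene8752 at 0.92, gene9316 at 0.88, gene5016 at 0.87 and gene4889 at 0.85. The lowest were gene6460 at -0.13, gene8977 at 0.26 and gene8239 at 0.49. Spot gene6460 was lower with radiation on both diets but did not follow the others from mouse to mouse, and it was the single spot for which replicate 2 with both treatments was not the highest of its group.

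**Figure D3:**
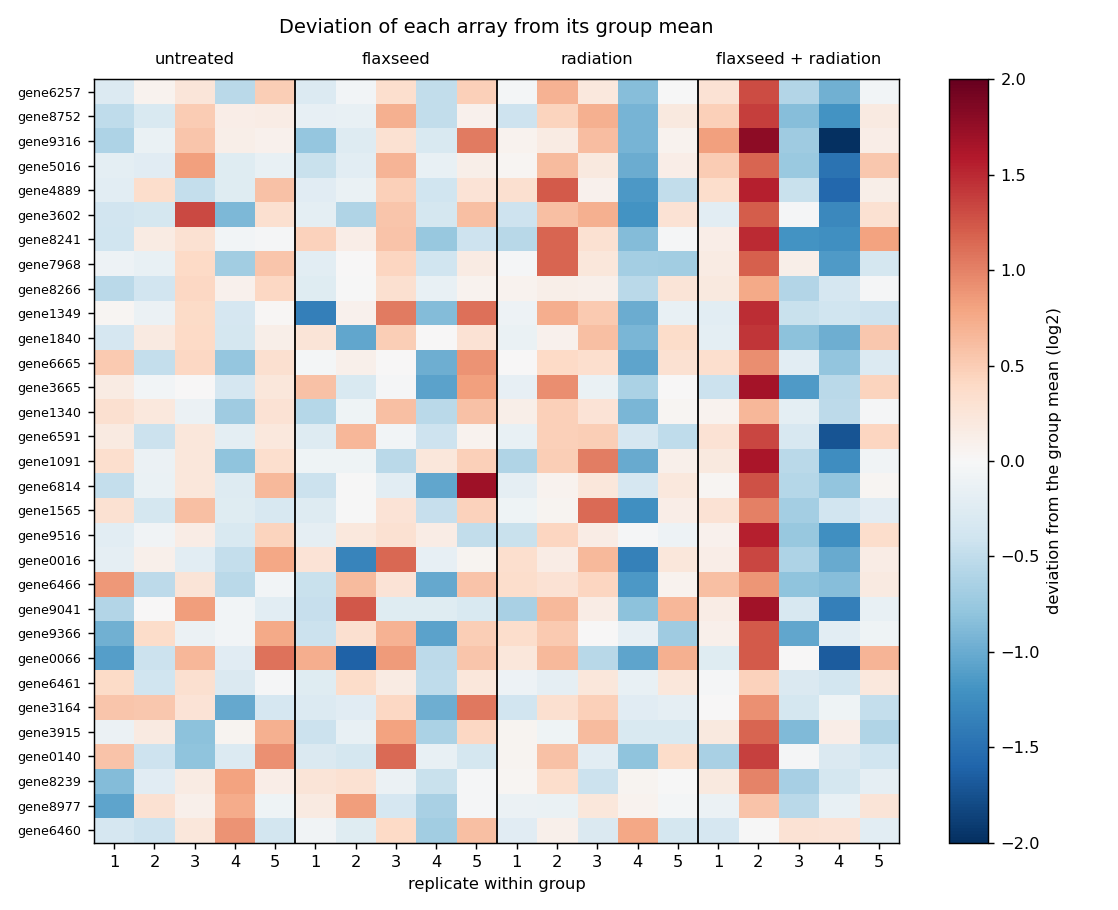
Deviation of each array (columns, replicates 1 to 5 of each group) from its group mean for the 31 spots (rows, ordered from the highest to the lowest correlation with the others), as log2 difference, red above and blue below. Replicate 2 with both treatments is red for 30 of 31 spots, and radiation replicate 4 and replicate 4 with both treatments are mostly blue.

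Outside the set, the 5 spots whose deviations over the 20 arrays were most like the mean deviation of the 31 were gene8741 (r = 0.84), gene6355 (0.81), gene9391 (0.77), gene1240 (0.76) and gene5759 (0.74). Without replicate 2 of the group with both treatments these correlations were 0.78, 0.71, 0.65, 0.62 and 0.50. Of these, 3 had lower means with radiation on both diets, short of the threshold. Spot gene8741 differed by -0.53 without flaxseed and -0.75 with it, gene9391 by -0.80 and -0.66, and gene1240 by -0.80 and -0.86. The other two did not share the direction: gene6355 differed by -0.24 without flaxseed and 0.61 with it, and gene5759 by -0.08 and 0.18.

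The rule asked for no difference between diets, so both diet comparisons were tested, although they share arrays with the rule. Flaxseed without radiation gave a higher mean than untreated for 27 of the 31 spots, with a median log2 difference of 0.42 and a range from -0.11 to 0.84. Over all spots the median was 0.00, with 50.5% above 0. No spot of the 31 passed in limma (0 of 31, as 0.438% of all spots did), and 2 of the 31 had an unadjusted p under 0.05, against 13.3% of all spots. Because the 31 spots vary together, the 27 are not 27 separate observations.

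The smallest p-values for flaxseed against untreated belonged to gene8239, at 0.80 (95% interval 0.19 to 1.40, limma adjusted p = 0.218), gene8977, at 0.80 (0.19 to 1.41, limma adjusted p = 0.221), and gene0140, at 0.78 (-0.06 to 1.62, limma adjusted p = 0.41). The largest difference was that of gene8241, at 0.84, with an interval from -0.13 to 1.80. Differences of 2-fold are thus inside these intervals.

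Among irradiated mice, 23 of the 31 spots had a higher mean with flaxseed than without, with a median log2 difference of 0.22. Over all spots the median was 0.00, with 50.1% above 0. Here too the spots vary together, so the 23 are not separate observations. No spot passed in limma (0 of 31, as 0% of all spots), and 0 of the 31 had an unadjusted p under 0.05, against 5.40% of all spots. The smallest p belonged to gene6461, at 0.33 (95% interval -0.08 to 0.73, limma adjusted p = 0.963), gene9516, at 0.52 (-0.22 to 1.27, adjusted p = 0.968), and gene9366, at 0.51 (-0.32 to 1.34, adjusted p = 0.992). The median turned to -0.11 without replicate 2 of the group with both treatments.

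The interaction, radiation on flaxseed minus radiation without it, is the difference between both values that the rule held below its threshold, so for these spots it is a description and no test is read from it. It was below 0 for 22 of the 31 spots, with a median of -0.17 and a range from -0.92 to 0.51. Over all spots, 49.6% were above 0, and the 22 are likewise not separate observations. The most negative value was that of gene9041, at -0.92, whose group means are given above. Over all 9600 spots, 0% passed for the interaction in limma, and 10.1% had an unadjusted p under 0.05.

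**Figure D4:**
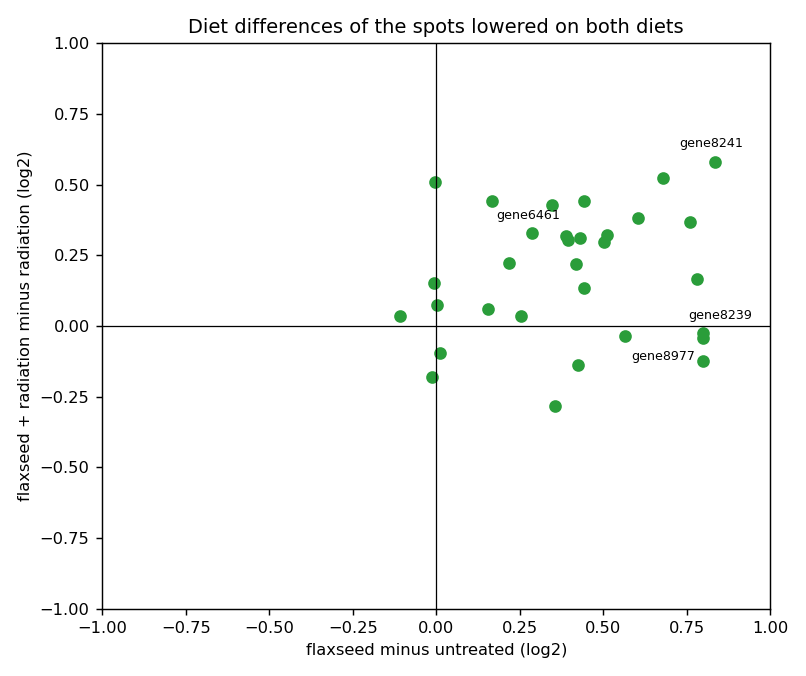
Diet differences of the 31 spots (log2 differences of group means, n = 5 mice), flaxseed minus untreated on the x axis and flaxseed with radiation minus radiation on the y axis. Of the 31 points, 27 lie right of 0 and 23 above it, and no single spot passed the test on either axis.

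The 31 spots were not spread evenly over the numbering. Read as 16 blocks of 24 rows and 25 columns, an assumption that the order of rows in the scanner files follows exactly (block by block, in panels of 5 columns), 12 of the 31 lay in column 16, 7 in column 15 and 4 in column 14. Together these columns held 23 of the 31 (74.2%), against 12.0% of all spots and 15.4% of the spots at least as bright as the dimmest of the 31. The columns were picked after their counts were seen, so the shares describe the set and are no test. The set came from 12 of the 16 blocks. Of the 10 spots shown by array, 8 lay in column 16.

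**Figure D5:**
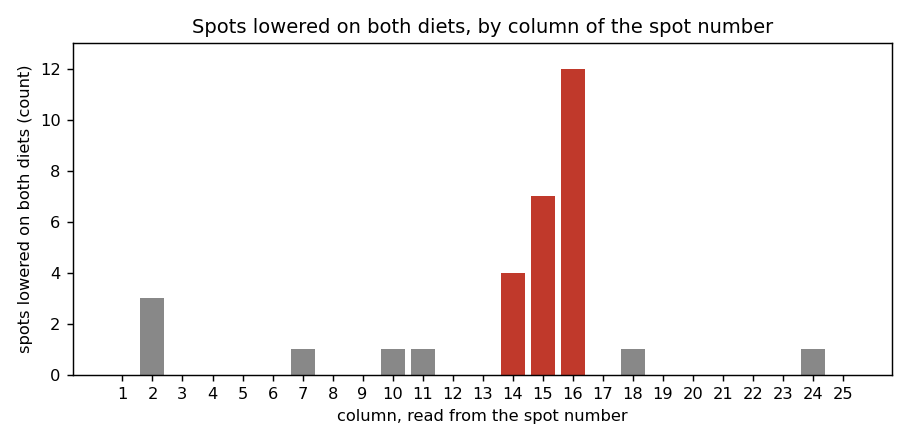
Count of the 31 spots in each of 25 columns read from the spot number (384 spots per column), with columns 14 to 16 in red. Column 16 holds 12, column 15 holds 7 and column 14 holds 4, and no other column holds more than 3.

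The rest of the same columns gave values near 0. The 1129 other spots of columns 14 to 16 had median log2 differences of 0.00 without flaxseed and 0.00 on flaxseed. The 113 spots outside the set directly beside, above or below the 31 in this layout had medians of -0.01 and -0.03. Any spot under the threshold on both diets belongs to the set, so none of these could be. Their lowest log2 differences were -0.96 without flaxseed and -0.90 on it. Of these neighbours, 4 were more than 0.5 lower on both diets, gene3640, gene4991, gene9391 and gene9491, which lay in columns 15 and 16. Only gene6460 with gene6461 and gene8241 with gene8266 were neighbours inside the set. The files give neither the probes nor the print order, so whether spots of the set share a sequence was not tested.

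Local background around the 31 spots moved with their signal. Its median over the 31 was 71.3 ± 28.3 scanner units (SD, n = 5) for untreated mice and 71.5 ± 28.6 for flaxseed mice. It was 32.0 ± 6.22 for radiation mice and 37.6 ± 11.6 for mice with both treatments. Over all spots the median background was between 18.1 and 19.1 in group means. Without any background correction the median log2 differences of the 31 were -1.92 and -2.09, and the rule then found 35 spots, which include the 31.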

How the data were processed

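Per the labels' protocols, lung RNA was labelled with 33P by reverse transcriptase, giving 1 channel per array. Per the file headers, the deposited scanner files hold a signal and a local background intensity for each of 9600 spots, linear and not normalized. Values in the authors' series table are also linear intensity. Between 95.9% and 97.7% of an array's spots there match the background-subtracted signal scaled to a median of 1 on that array (relative tolerance 0.001). All other values sit at a floor of 0.002 (3.30% of the table, and 0 of the values of the 31 spots). For radiation replicates 4 and 5 the table and the scanner files are exchanged, while 18 of 20 columns match their own array. Group means do not change with this, and single arrays are named here as in the scanner files. Scanner and image software are not given in the labels or headers.

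Intensities were corrected by normexp (offset 50, which shrinks differences of dim spots), quantile-normalized, which gives all arrays the same set of values, and taken as log2. All 20 arrays entered 1 limma model (version 3.58.1, R 4.3.3) with a mean per group and 16 residual degrees of freedom. The p-values are two-sided, with Benjamini-Hochberg adjustment over 9600 spots, with a threshold of 0.05. The fit was tested on simulated data. The spots, lists and tests were chosen with earlier results of these data known. Spots shown in full are the 10 with the lowest value of the larger of both rule differences. Those named for the threshold (3 on each side), likeness (5), correlation (5 highest, 3 lowest) and diet (3 smallest p) followed fixed counts. Alternatives were median scaling, cyclic loess, no background correction, the authors' table, a fit without the dimmest 33.3%, limma's trend and robust options, other pseudocounts, and leaving out each array. The lists chosen on a single diet and their tests were added after the data were seen. Gene lists prepared for named spots could not be applied. The interaction was fitted in the same model, but for the 31 spots it is given as values only, since the rule held both of its terms below the threshold.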

Additional observations from a re-analysis of the deposited data

Results flagged for a closer look

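In 44 sets of 5 arrays (the 10 spots shown by array and the mean of the 31, in each group), 3 held an array far from the rest, where chance gives about 2.2. Radiation replicate 4 was low for 2 spots: gene0016 had a log2 intensity of 10.52 there, while its group otherwise ran from 12.01 to 12.52, and gene6466 had 10.43, while its group otherwise ran from 11.65 to 12.00. Spot gene5016 stood at 14.59 in untreated replicate 3, against 13.52 to 13.62.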

How the results depend on the processing

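The rule found 29 to 35 spots under 5 other settings and 29 to 34 when single arrays were left out. Of the 31, 29 or more were found each time. The counts of 0 in both diet comparisons were 0 under all 6 other settings and all 20 fits without an array. Median radiation differences stayed between -1.96 and -1.69 without flaxseed and between -2.22 and -1.79 on flaxseed over all alternatives run. The flaxseed difference without radiation stayed between 0.28 and 0.50. The diet difference among irradiated mice ran from -0.11 to 0.38, and it was -0.11 without replicate 2 of the group with both treatments. Of the 53 spots chosen on the flaxseed diet, 5 fell without flaxseed, where 6 of all spots did. This was 15 with median scaling (17 of all spots), 15 with cyclic loess (16), 24 without background correction (29), 23 without the dimmest spots (28), 17 with trend and robust options (22), 6 with the authors' table (8), and 0 to 20 when single arrays were left out. The cause was not tested for any of these settings. Without the dimmest spots, fewer spots entered the fit. No paired analysis was possible because the labels number the mice 1 to 20 and pair none across groups.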
